A study of Mus musculus with 12 samples.

Results

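The 6 genes Gata4, Zfpm2, Wt1, Lhx9, Emx2 and Tcf21, which encode transcription factors and a cofactor of the early gonadal ridge, were followed across Cbx2 knockout (KO) and wild-type (WT) mouse gonads. They were read from the 12 probe sets that the platform annotation assigns to these genes alone, of 45037 probe sets and 18193 genes on the array that were measured. Gata4, Zfpm2 and Tcf21 had 2 probe sets each, Lhx9 had 4, and Wt1 and Emx2 had 1 each. The arrays were hybridised with RNA of gonadal cells cut by laser from frozen sections of mouse embryos at E11.5, each array with a pool of 2 or 3 individuals. The 12 arrays fell into 4 groups of 3: KO XY, WT XY, KO XX and WT XX. KO embryos came from heterozygous parents, and the make of the allele is not described in the labels. The cells were found by GATA4 staining and by tissue form, so Gata4 was part of the choice of tissue and its differences between groups are given as a description only. Values are log2 signals after RMA normalization, and a difference of 1 is a factor of 2.

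The gonadal ridge forms as the coelomic epithelium thickens beside the mesonephros, before the tissue takes a testis or ovary fate. GATA4 is a zinc finger factor needed for that thickening, and FOG2, the product of Zfpm2, binds GATA4 and modifies its activity. WT1 is a zinc finger factor, LHX9 a LIM homeodomain factor and EMX2 a homeodomain factor, and mouse embryos that lack any of these fail to form or to keep gonads. TCF21, also called POD1 or capsulin, is a basic helix-loop-helix factor of mesenchyme around forming organs that holds down Nr5a1 and steroidogenic genes in the gonad. CBX2 is a chromobox subunit of Polycomb repressive complex 1, a complex that keeps developmental genes silent.

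Array medians lay between 5.88 and 5.94. Signal from Cbx2 was 9.33 to 9.58 in KO XY and 8.81 to 9.04 in WT XY, and 9.27 to 9.48 in KO XX and 8.46 to 8.77 in WT XX. Whether its probe set lies in the deleted part is not known, so it does not check the genotype. All directions below rest on the titles and genotype labels; the source field of each WT array instead reads Cbx2 KO XX. Xist and the Y-linked Eif2s3y matched the labelled sex on all 12 arrays. WT XX replicate 1 stood apart, with a mean correlation across probe sets of 0.988 with its own group and 0.995 with the WT XY arrays, and the XX calls of the 12 probe sets and the XX counts of the gene lists are therefore also given without it. The Gapdh 3' minus 5' control difference, a measure of RNA integrity and amplification length, was 4.91 ± 0.12 in KO XY and 4.13 ± 0.38 in WT XY (SD, n = 3, exact permutation p = 0.1, two-sided, the smallest possible), and 4.05 ± 0.22 in KO XX and 4.31 ± 0.45 in WT XX (exact permutation p = 0.4).

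Knockout and wild type were compared in each sex to ask how loss of the Polycomb subunit alters the ridge factors. The factors did not move as a block. Lhx9 fell on all 4 of its probe sets in both sexes, by 0.90 to 1.21 on the log2 scale in XY and by 0.73 to 0.96 in XX. Tcf21 rose, on 1 of its 2 probe sets in XY and on both in XX. Zfpm2 rose in XX on 1 of 2 probe sets, while Wt1 and Emx2 did not pass the test in either sex. Gata4 was lower in KO on its brighter probe set in both sexes.

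In numbers, 6 of the 12 probe sets passed in XY (limma, Benjamini-Hochberg adjusted p under 0.05 over all probe sets), 1 higher and 5 lower, where 8.89% of all probe sets passed (4.24% higher, 4.65% lower). In XX 8 passed, 3 higher and 5 lower, where 9.35% of all probe sets did (5.77% higher, 3.58% lower). Without WT XX replicate 1, 7 passed in XX, where 7.9% of all probe sets did. Probe sets of a gene share their transcript, so by gene these were 3 of 6 in XY and 4 of 6 in XX. A gene counted here if any of its probe sets passed, which favours genes with several, and the share of all genes by this rule was not computed. In a fit of the brightest probe set of each gene, 2 of 6 passed in XY (Gata4 and Lhx9), where 2421 of 18193 genes did. In XX 4 of 6 passed in that fit, where 2493 genes did. With all probe sets fitted but Gata4 not counted, the counts were 5 of 10 probe sets in XY and 7 of 10 in XX. By the any-probe-set rule these were 2 of 5 genes in XY and 3 of 5 in XX. KO and WT did not overlap in 9 of the 12 probe sets in XY and in 8 in XX, against 30.7% and 23.7% of all probe sets. The median difference of the 12 was -0.19 in XY and -0.29 in XX, beside 0.01 and -0.03 over all probe sets. With the Gata4 probe sets left out, 7 of 10 did not overlap in each sex. The median was then -0.174 in XY and -0.185 in XX. Members were chosen with earlier results of these data known, so these counts describe the set and do not test it.

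**Figure D1:**
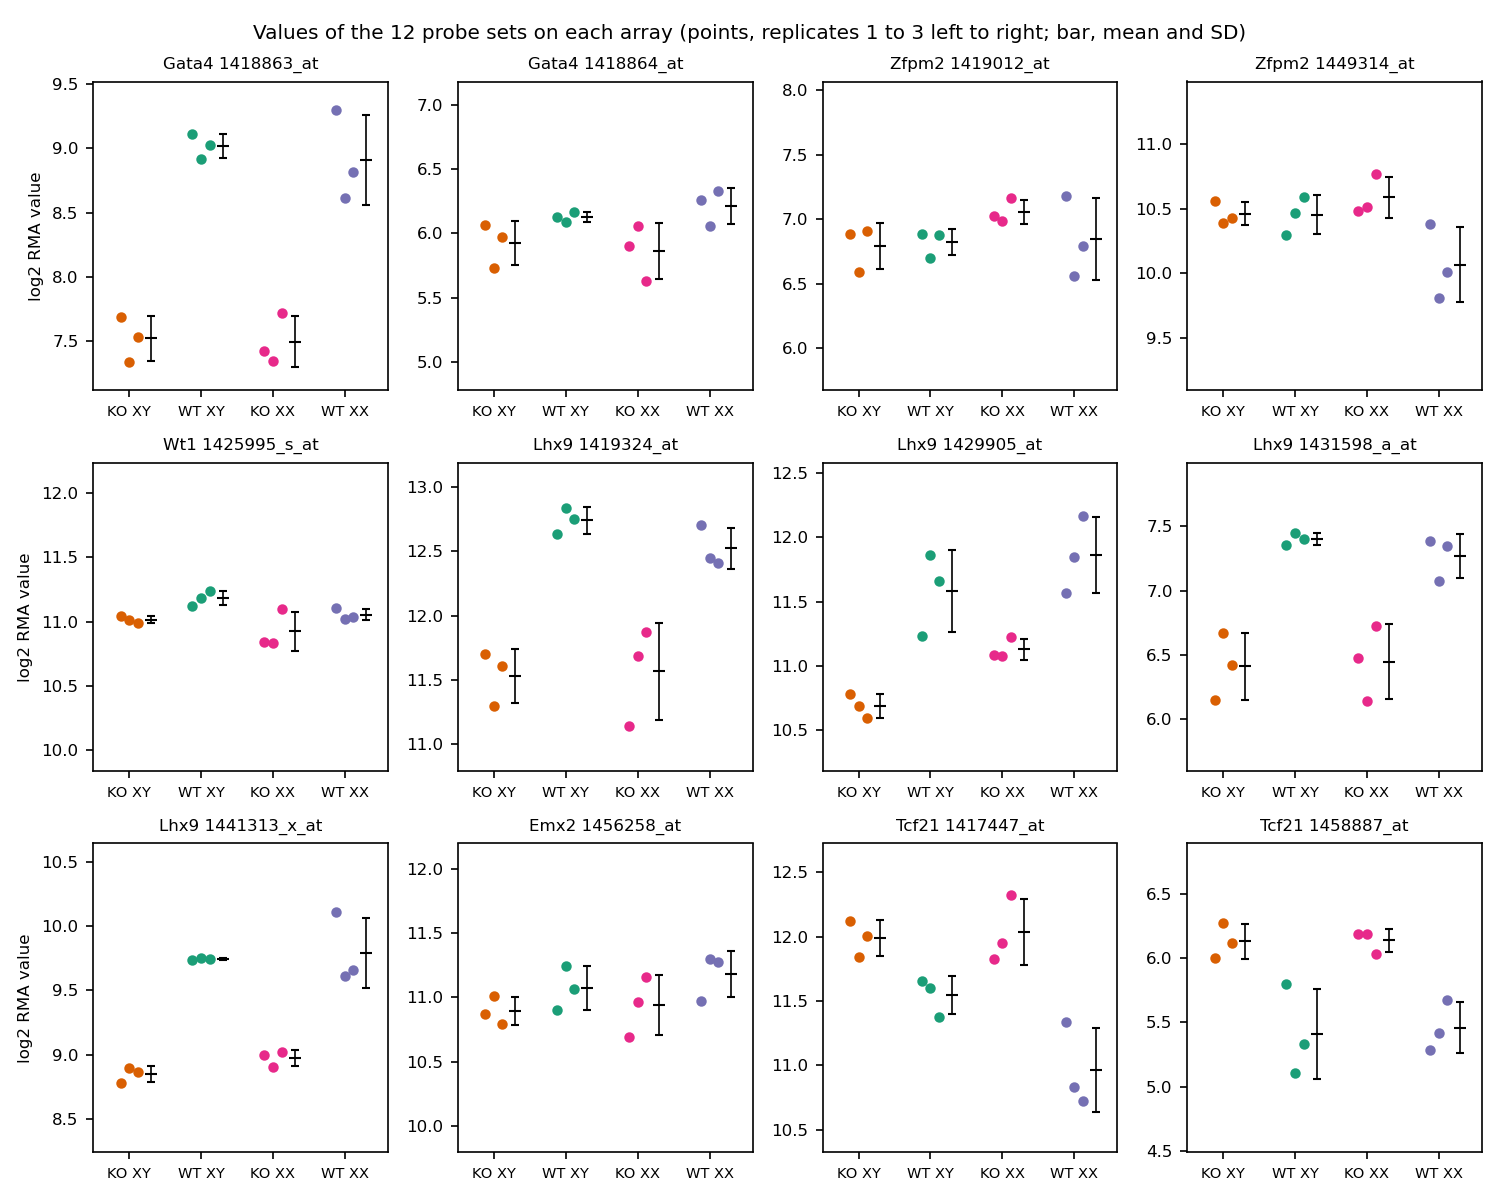
Values of the 12 probe sets (vertical axes, log2 RMA, each panel spanning the same range) in the 4 groups; points are arrays and bars the mean with SD (n = 3). Every KO point lies below every WT point of the same sex in the 4 Lhx9 panels, and above them in the 2 Tcf21 panels.

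**Figure D2:**
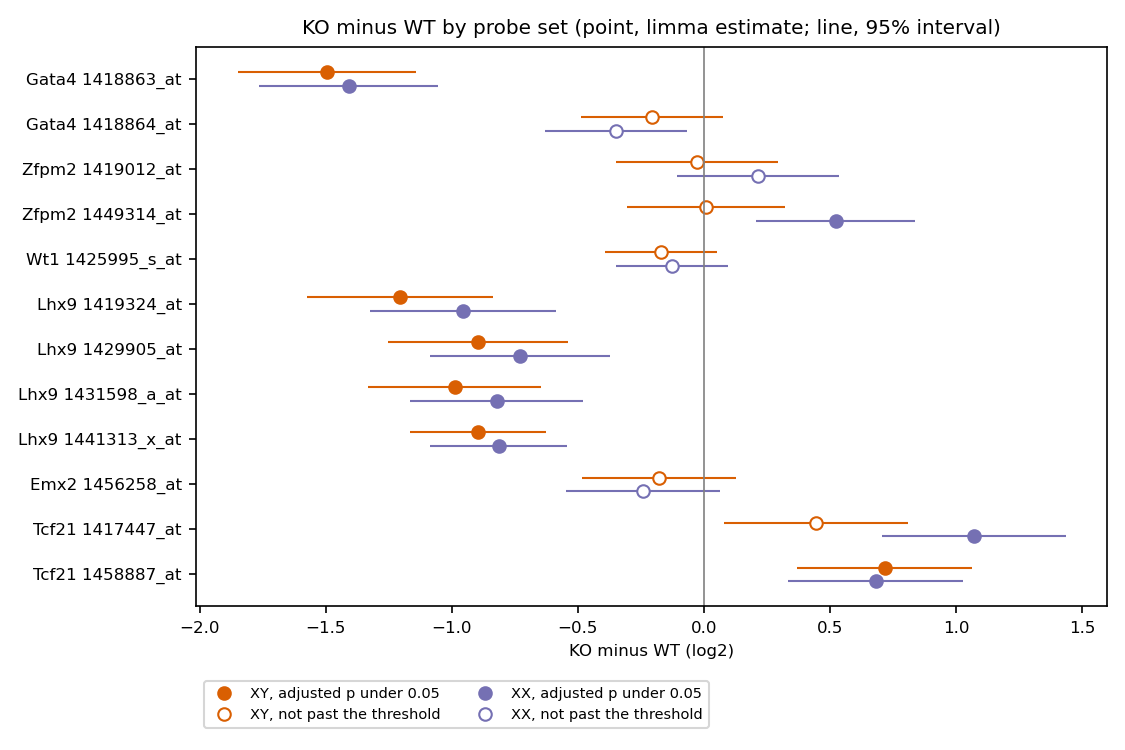
KO minus WT (horizontal axis, log2) of the 12 probe sets in XY and in XX, with 95% intervals; filled points passed at adjusted p under 0.05. All 8 Lhx9 estimates lie left of 0 between -1.21 and -0.73, and all 4 Tcf21 estimates lie right of it between 0.44 and 1.07.

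Lhx9 and Tcf21 were the 2 genes outside Gata4 with calls in both sexes, and they moved in opposite directions. For Tcf21 the XY call rested on its dimmer probe set alone. The brighter one did not pass in XY by limma (adjusted p = 0.134). Their promoter windows are shown beside that of Emx2, which passed in neither sex. The windows run from 250 bases before to 50 after the start listed by RefSeq in build GRCm38.p6, 5′ to 3′, and these 3 were the members with a window in the table. Capitals mark matches on either strand to GATAA (GATA factors), CANNTG (basic helix-loop-helix factors), TAATTA (homeodomain factors) or the 9-base WT1 and EGR motif GCGGGGGCG.
Lhx9, chr1:138842395-138842694, minus strand: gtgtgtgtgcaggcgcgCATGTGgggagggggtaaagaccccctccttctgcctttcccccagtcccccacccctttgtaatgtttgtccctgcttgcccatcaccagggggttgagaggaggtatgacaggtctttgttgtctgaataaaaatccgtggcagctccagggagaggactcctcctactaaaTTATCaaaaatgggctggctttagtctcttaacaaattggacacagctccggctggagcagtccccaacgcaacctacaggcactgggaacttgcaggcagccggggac
Tcf21, chr10:22820094-22820393, minus strand: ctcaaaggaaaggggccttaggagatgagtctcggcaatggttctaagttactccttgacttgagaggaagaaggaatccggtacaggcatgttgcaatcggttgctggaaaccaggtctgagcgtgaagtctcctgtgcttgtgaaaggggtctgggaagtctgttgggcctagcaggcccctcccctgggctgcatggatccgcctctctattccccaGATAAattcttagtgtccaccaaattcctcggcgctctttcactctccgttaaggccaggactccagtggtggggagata
Emx2, chr19:59458440-59458739, plus strand: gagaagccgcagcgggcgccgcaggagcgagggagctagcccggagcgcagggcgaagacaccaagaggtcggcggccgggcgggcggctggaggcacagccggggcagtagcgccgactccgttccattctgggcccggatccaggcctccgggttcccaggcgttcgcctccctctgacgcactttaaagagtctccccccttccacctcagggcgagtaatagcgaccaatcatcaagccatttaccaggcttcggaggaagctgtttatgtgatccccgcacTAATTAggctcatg
The Lhx9 window held GATAA as TTATC, first base at -59 from the start, and CANNTG as CATGTG at -233. The Tcf21 window held GATAA at -30. Among 32851 windows, 25.4% held GATAA, 72.3% CANNTG, 5.29% TAATTA and 2.91% GCGGGGGCG on either strand. In the Emx2 window TAATTA lay at 37 bases after the start, and GCGGGGGCG was in none of the 3. The windows held 6 CpG in Lhx9, 8 in Tcf21 and 26 in Emx2, beside a median of 7 over all windows, and 16.9% of windows had at least as many as Emx2. These matches are a description of the letters and not of bound sites.

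Gata4, the factor whose staining guided the capture, gave on its brighter probe set (1418863_at) 7.69, 7.34 and 7.54 in the KO XY arrays, against 9.11, 8.92 and 9.03 in the WT XY arrays. In XX it gave 7.42, 7.35 and 7.72 in KO, against 9.29, 8.61 and 8.82 in WT. The KO and WT arrays were apart in both sexes, and the KO groups lay within 0.03 of each other. The differences were -1.50 ± 0.17 in XY and -1.41 ± 0.17 in XX (standard error), or -1.22 ± 0.15 in XX without WT XX replicate 1. The second probe set (1418864_at) ranged from 5.63 to 6.33, close to the array medians, and differed by -0.21 ± 0.13 in XY and -0.35 ± 0.13 in XX, or -0.33 ± 0.15 in XX without that array. In bulk tissue, fewer cells of a type and less RNA per cell cannot be told apart, here and in what follows.

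Zfpm2, which encodes the GATA4 cofactor, had 10.56, 10.39 and 10.43 in the KO XY arrays on its brighter probe set (1449314_at), against 10.29, 10.47 and 10.59 in the WT XY arrays. These groups overlapped, and the difference was 0.01 ± 0.15 with a 95% interval from -0.31 to 0.32 (adjusted p = 0.987). In XX the values were 10.48, 10.52 and 10.77 in KO, against 10.38, 9.81 and 10.01 in WT. Here every KO array lay above every WT array. The XX difference was 0.52 ± 0.15 (1.44-fold, adjusted p = 0.0385), and 0.68 ± 0.14 (adjusted p = 0.00667) without WT XX replicate 1. This call was lost in 11 of 22 alternatives, among them quantile normalization and leaving out any KO XX array, at up to adjusted p = 0.148. The dimmer probe set (1419012_at) overlapped between KO and WT in both sexes, with -0.03 ± 0.15 in XY (adjusted p = 0.956) and 0.21 ± 0.15 in XX (adjusted p = 0.437, or 0.38 ± 0.14 and adjusted p = 0.11 without WT XX replicate 1).

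Wt1, which is needed to keep the early gonad alive, varied little. Its probe set (1425995_s_at, a type that can match transcripts of related genes) had 11.04, 11.01 and 10.99 in the KO XY arrays, against 11.12, 11.19 and 11.24 in the WT XY arrays. In XX the values were 10.84, 10.83 and 11.10 in KO, against 11.10, 11.02 and 11.04 in WT. The whole span over 12 arrays was 0.405. The XY groups did not overlap, yet the difference of -0.17 ± 0.10 did not pass (adjusted p = 0.395), and its 95% interval ran from -0.39 to 0.05. In XX the difference was -0.13 ± 0.10 (adjusted p = 0.503), with an interval from -0.35 to 0.09, and -0.10 ± 0.12 (adjusted p = 0.658) without WT XX replicate 1. A fall by the size seen in Lhx9 lies outside both intervals.

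Lhx9, the LIM homeodomain gene, had 11.70, 11.29 and 11.60 in the KO XY arrays on its brightest probe set (1419324_at), against 12.63, 12.84 and 12.75 in the WT XY arrays. In XX the values were 11.14, 11.68 and 11.87 in KO, against 12.70, 12.45 and 12.41 in WT. The lowest WT array of either sex stood above the highest KO array. The difference was -1.21 ± 0.17 in XY (2.31-fold lower in KO, adjusted p = 0.00041) and -0.96 ± 0.17 in XX (1.94-fold lower, adjusted p = 0.00268). Without WT XX replicate 1 the XX difference was -0.86 ± 0.19 (adjusted p = 0.0111).

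The other Lhx9 probe sets repeated this fall at other signal levels. Probe set 1429905_at had 10.78, 10.69 and 10.60 in the KO XY arrays, against 11.23, 11.86 and 11.66 in the WT XY arrays, and 11.09, 11.08 and 11.22 in KO XX, against 11.57, 11.85 and 12.16 in WT XX. On it the KO XY arrays were also below every KO XX array. Its differences were -0.90 ± 0.17 in XY (adjusted p = 0.00328) and -0.73 ± 0.17 in XX (adjusted p = 0.0126, and 0.051 without WT XX replicate 3). The dim probe set 1431598_a_at averaged 6.41 ± 0.26 in KO XY, against 7.40 ± 0.05 in WT XY, and 6.45 ± 0.29 in KO XX, against 7.27 ± 0.17 in WT XX (SD, n = 3 each). Its differences were -0.99 ± 0.16 in XY (adjusted p = 0.00115), beside -0.82 ± 0.16 in XX (adjusted p = 0.00462). Probe set 1441313_x_at, a type with probes open to cross-hybridisation, averaged 8.85 ± 0.06 in KO XY, against 9.74 ± 0.01 in WT XY, and 8.98 ± 0.07 in KO XX, against 9.79 ± 0.27 in WT XX. Its differences were -0.90 ± 0.13 in XY (adjusted p = 0.000377), beside -0.81 ± 0.13 in XX (adjusted p = 0.000893). KO and WT did not overlap on either of these probe sets. Without WT XX replicate 1 the XX differences of the 3 dimmer Lhx9 probe sets were -0.88, -0.76 and -0.66, and all passed. With the Gapdh difference as a covariate, the XY calls of these last 2 probe sets were lost, at adjusted p = 0.0884 and 0.0635, with differences of -0.86 and -0.67.

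Emx2, a homeobox gene of the urogenital epithelium, also varied little. It had 10.87, 11.01 and 10.79 in the KO XY arrays, against 10.90, 11.24 and 11.06 in the WT XY arrays, and 10.69, 10.97 and 11.16 in KO XX, against 10.97, 11.30 and 11.28 in WT XX. KO and WT overlapped in both sexes. The differences were -0.18 ± 0.14 in XY (adjusted p = 0.548, 95% interval from -0.48 to 0.13) and -0.24 ± 0.14 in XX (adjusted p = 0.340, interval from -0.55 to 0.06). Without WT XX replicate 1 the XX value was -0.35 ± 0.15 (adjusted p = 0.189).

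Tcf21, the mesenchymal helix-loop-helix gene, went the other way. Its brighter probe set (1417447_at) had 12.12, 11.84 and 12.01 in the KO XY arrays, against 11.65, 11.60 and 11.37 in the WT XY arrays. In XX it had 11.83, 11.95 and 12.33 in KO, against 11.34, 10.83 and 10.72 in WT. The KO groups were level with each other, and the WT XX arrays were the lowest. In XX the difference was 1.07 ± 0.17 (2.1-fold higher in KO, adjusted p = 0.00107), and 1.26 ± 0.16 (adjusted p = 0.000214) without WT XX replicate 1. In XY it was 0.44 ± 0.17 and did not pass (adjusted p = 0.134), though the groups did not overlap; it passed with array weights (adjusted p = 0.0188) and in a fit of the XY arrays alone (adjusted p = 0.0342).

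The dimmer Tcf21 probe set (1458887_at) had 6.0, 6.27 and 6.11 in the KO XY arrays, against 5.80, 5.11 and 5.33 in the WT XY arrays, and 6.19, 6.19 and 6.03 in KO XX, against 5.28, 5.42 and 5.67 in WT XX. It lay near the array medians, and KO was above WT in both sexes. The difference was 0.72 ± 0.16 in XY (adjusted p = 0.0119) and 0.68 ± 0.16 in XX (adjusted p = 0.0162). The XY call was lost without any of KO XY replicate 2, WT XY replicate 2 and WT XY replicate 3 and with the Gapdh covariate (0.74, adjusted p = 0.183). The XX call was lost when KO XX replicate 1, KO XX replicate 2 or WT XX replicate 1 was left out (for the last, 0.59 ± 0.18, adjusted p = 0.0562).

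Over the XY comparison as a whole, the Gapdh covariate left 3 of the 6 calls, the brighter Gata4 probe set (-1.16), Lhx9 1419324_at (-1.04, adjusted p = 0.046) and Lhx9 1429905_at (-1.30), where 2.31% of all probe sets then passed. In XX, where the Gapdh difference ran the other way, 7 of 8 calls held and that of Zfpm2 was lost (adjusted p = 0.0683), where 5191 of all 45037 probe sets passed.

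Next, the sexes were compared within each genotype, to ask whether the ridge factors differ between XY and XX gonads at this stage. By limma none of the 12 probe sets passed in KO or in WT, where 0.0377% and 0.0555% of all probe sets did. At an unadjusted p under 0.05 there was 1 of 12 in KO, Lhx9 1429905_at with -0.44 ± 0.17 (adjusted p = 0.401), beside 10.6% of all probe sets. In WT there were 2 of 12, Tcf21 1417447_at and Zfpm2 1449314_at, beside 8.74%. Groups of the sexes did not overlap in 3 of the 12 probe sets in KO (Zfpm2 1419012_at, Lhx9 1429905_at and 1441313_x_at), all lower in XY, where 16.6% of all probe sets did not and 7.88% were lower. The Gapdh 3' minus 5' difference was also 0.87 larger in KO XY than in KO XX (exact permutation p = 0.1). Its part in these 3 was not tested. In WT they did not overlap in 2 (Wt1 and Tcf21 1417447_at), both higher in XY, where 12.3% did not and 7.9% were higher.

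The WT values turned on a single array. Tcf21 1417447_at was higher in WT XY than in WT XX by 0.58 ± 0.17 (adjusted p = 0.538), and by 0.77 ± 0.16 (adjusted p = 0.0135) without WT XX replicate 1. Zfpm2 1449314_at was higher in WT XY by 0.39 ± 0.15 (adjusted p = 0.547), and by 0.55 ± 0.14 (adjusted p = 0.0334) without that array. On both probe sets WT XX replicate 1 was the WT XX array nearest to WT XY, at 11.34 for Tcf21 and 10.38 for Zfpm2. Without it 5.44% of all probe sets passed in this comparison, so 2 of 12 members stand beside a raised background. In KO the same probe sets gave -0.05 ± 0.17 for Tcf21 (95% interval from -0.41 to 0.32) and -0.13 ± 0.15 for Zfpm2 (interval from -0.44 to 0.19).

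**Figure D3:**
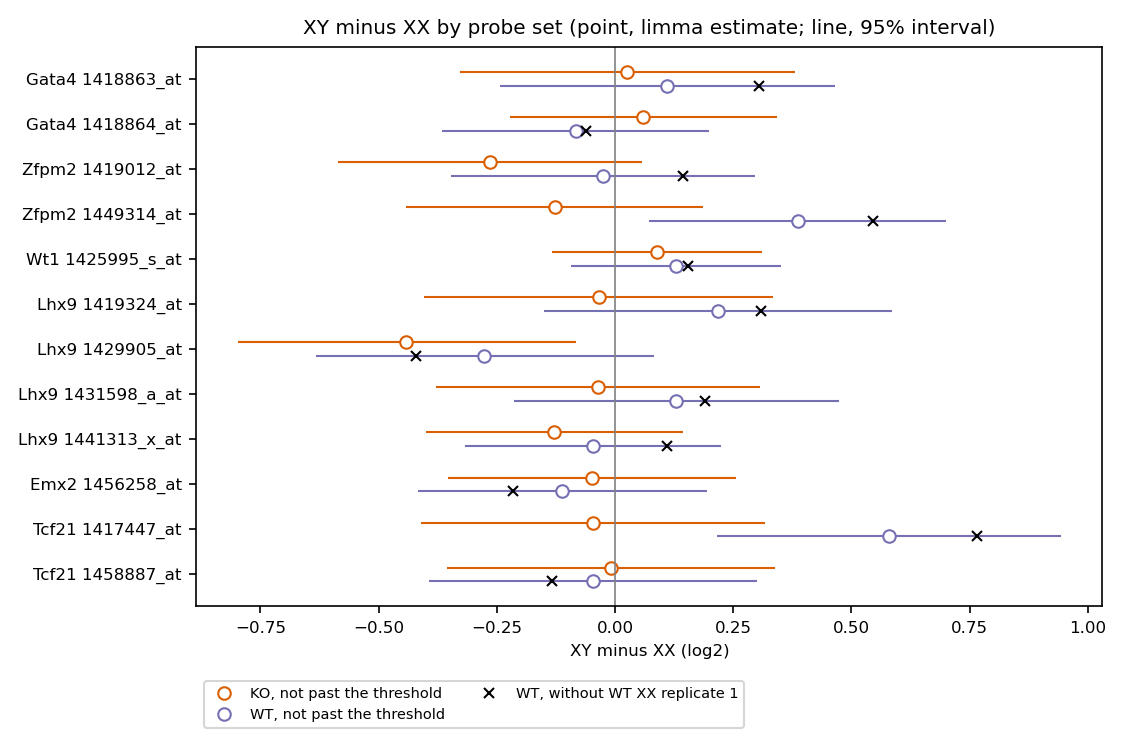
XY minus XX (horizontal axis, log2) of the 12 probe sets in KO and in WT, with 95% intervals; crosses are the WT estimates without WT XX replicate 1. All points are open because none passed with all arrays, and the crosses of Tcf21 1417447_at (0.77) and Zfpm2 1449314_at (0.55) lie farthest right.

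Whether the KO difference itself depended on sex was tested as an interaction, the XY difference minus the XX difference. By limma none of the 12 probe sets passed, where 0.00666% of all probe sets did. At an unadjusted p under 0.05 there were 2 of 12, beside 6.44% of all probe sets. Tcf21 1417447_at had -0.63 ± 0.24 (adjusted p = 0.771), and -0.81 ± 0.21 (adjusted p = 0.166) without WT XX replicate 1. Zfpm2 1449314_at had -0.51 ± 0.21 (adjusted p = 0.771), and -0.67 ± 0.18 (adjusted p = 0.185) without it. The 4 Lhx9 probe sets ranged from -0.25 to -0.08, with 95% intervals reaching from -0.77 to 0.34. Their estimates ranged from -0.34 to -0.02 when WT XX replicate 1 was left out.

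By level, Lhx9 1419324_at ran from WT XY (12.74 ± 0.10) over WT XX (12.52 ± 0.16) and KO XX (11.57 ± 0.38) to KO XY (11.53 ± 0.21, SD, n = 3 each), and the last pair did not differ beyond its spread. For Tcf21 1417447_at the order was KO XX (12.04 ± 0.26), KO XY (11.99 ± 0.14), WT XY (11.54 ± 0.15) and WT XX (10.96 ± 0.33), and again the KO pair lay within its spread. Emx2 had WT XX (11.18 ± 0.18), WT XY (11.07 ± 0.17), KO XX (10.94 ± 0.23) and KO XY (10.89 ± 0.11), in which no neighbours differed by more than the larger SD. The brighter Zfpm2 probe set had 3 groups between 10.45 and 10.59, and WT XX below them at 10.07 ± 0.29. Wt1 had group means between 10.93 and 11.18.

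Other genes of the ridge were read from lists, each gene by its brightest probe set. Of 12 measured ridge genes outside the 6 members, 3 rose and 5 fell in XY, where 5.58% and 6% of 18193 genes did, with a list median of 0.17 beside 0.01 over all genes. In XX 3 rose and 4 fell, where 7.28% and 4.64% of genes did, with a median of 0.12 beside -0.02. Cbx2, the targeted gene, is counted among the 3 that rose in each sex. Gadd45g, a stress-response gene that acts upstream of Sry, had 7.64, 7.90 and 7.57 in KO XY, against 11.52, 11.55 and 11.56 in WT XY, a difference of -3.84 ± 0.18 (adjusted p = 1.74e-08). It had the lowest difference of this list in both sexes, with -3.13 ± 0.18 in XX. Nr5a1, the nuclear receptor that WT1 and LHX9 are reported to activate and TCF21 to repress, had 7.92, 7.68 and 7.92 in KO XY, against 10.33, 10.02 and 10.21 in WT XY. In XX Nr5a1 had 7.83, 7.76 and 8.33 in KO, against 10.29, 9.87 and 9.87 in WT.

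These Nr5a1 values differed by -2.35 ± 0.17 in XY (adjusted p = 1e-06) and -2.04 ± 0.17 in XX (adjusted p = 4.47e-06), with no overlap between KO and WT. Nr0b1, a nuclear receptor gene of the gonad and adrenal, had -2.50 ± 0.26 in XY and -1.97 ± 0.26 in XX. Numb, an inhibitor of Notch signalling, had -0.83 ± 0.13 in XY (adjusted p = 0.000995) and -0.60 ± 0.13 in XX (adjusted p = 0.00929). Kdm3a, a histone demethylase needed for Sry expression, fell in XY by 0.81 ± 0.17 (adjusted p = 0.00676) and had -0.38 ± 0.17 in XX (adjusted p = 0.186). The interaction of Kdm3a did not pass (adjusted p = 0.775). The receptors Insr and Igf1r rose in both sexes. Igf1r had 0.63 ± 0.14 in XY (adjusted p = 0.0104) and 0.89 ± 0.14 in XX (adjusted p = 0.000968). Insr had 1.002 ± 0.18 in XY (adjusted p = 0.00233) and 0.89 ± 0.18 in XX (adjusted p = 0.00545). Cbx2 also passed as higher in both sexes. Whether its probe set lies in the deleted part is not known, so it is not read as a response. With the Gapdh covariate the XY calls of Cbx2, Insr, Igf1r and Kdm3a were lost. Without WT XX replicate 1 the XX counts were 4 higher and 4 lower, Gata6 having joined.

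Genes reported as targets of the 6 factors were read the same way. Of 14 measured, 1 rose and 6 fell in XY (median -0.15), and 3 rose and 5 fell in XX (median -0.07). The 14 include Sry, whose probe set did not separate the sexes. By limma its XY minus XX was 0.13 ± 0.13 in WT (adjusted p = 0.821) and 0.12 ± 0.13 in KO (adjusted p = 0.755). It is therefore not shown to read Sry. Of all genes, 5.58% rose and 6% fell in XY, and 7.28% rose and 4.64% fell in XX. Without WT XX replicate 1 the XX counts of the 14 were the same. Inha, the inhibin alpha subunit, had -2.47 ± 0.20 in XY and -2.40 ± 0.20 in XX (adjusted p = 3.59e-06 and 5.61e-06). Cyp11a1, the side-chain cleavage enzyme that starts steroid synthesis, had -2.31 ± 0.24 and -2.64 ± 0.24. Nr5a1, Dmrt1, a testis transcription factor, and Amhr2, the receptor of anti-Müllerian hormone, were the other genes lower in both sexes. Sox9, which drives Sertoli cell fate, had -2.77 ± 0.19 in XY and 0.03 ± 0.19 in XX, and its interaction passed (-2.80 ± 0.26, adjusted p = 0.00213). That interaction call was lost with the Gapdh covariate, under which 0 of all probe sets passed.

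Egfr, which Emx2 is reported to hold down in the mouse gonadal epithelium, had 0.86 ± 0.18 in XY (adjusted p = 0.00774) and 1.22 ± 0.18 in XX (adjusted p = 0.000643), while Emx2 itself did not pass in either sex. The XY call of Egfr was lost with the Gapdh covariate. Spry1, an inhibitor of receptor tyrosine kinase signalling, and Dkk1, a Wnt antagonist, passed in XX, with 0.74 ± 0.13 (adjusted p = 0.00236) and 0.53 ± 0.15 (adjusted p = 0.0426), and had 0.37 ± 0.13 and -0.11 ± 0.15 in XY. Their interactions did not pass (adjusted p = 0.775 and 0.771), and the XX call of Dkk1 was lost with the Gapdh covariate.

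Among 21 relatives of the members, 3 rose and 1 fell in XY (median -0.04), and 3 rose and 2 fell in XX (median 0.07). Of all genes, 5.58% rose and 6% fell in XY, and 7.28% rose and 4.64% fell in XX. The 1 of 21 that fell in XY is thus near the share of all genes. Gata5, a further GATA factor, had 8.15, 7.94 and 8.18 in KO XY, against 5.95, 5.83 and 5.80 in WT XY, and 7.62, 7.36 and 7.76 in KO XX, against 6.20, 5.84 and 6.05 in WT XX. Its WT values lay near the array medians and its KO values well above them. The difference was 2.23 ± 0.13 in XY (adjusted p = 1.89e-07) and 1.55 ± 0.13 in XX (adjusted p = 5.97e-06), opposite in sign to Gata4. Gata2, a GATA factor of blood and urogenital tissue, had 1.15 ± 0.19 in XY (adjusted p = 0.00155) and 0.80 ± 0.19 in XX (adjusted p = 0.017). Tcf23, a helix-loop-helix relative of Tcf21, was also higher in KO, with 0.74 ± 0.15 in XY (adjusted p = 0.00664) and 1.02 ± 0.15 in XX (adjusted p = 0.000628). Egr1, a zinc finger factor with a binding motif like that of WT1, had -1.42 ± 0.23 in XY (adjusted p = 0.00108) and -1.02 ± 0.23 in XX (adjusted p = 0.0113). Tcf15, a helix-loop-helix factor of somites, passed in XX (-0.58 ± 0.14, adjusted p = 0.0149). In XY Tcf15 had -0.07 ± 0.14 (adjusted p = 0.856), and its interaction did not pass (adjusted p = 0.771). Gata6 joined the genes higher in XX without WT XX replicate 1, and Gata3 did with the Gapdh covariate.

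**Figure D4:**
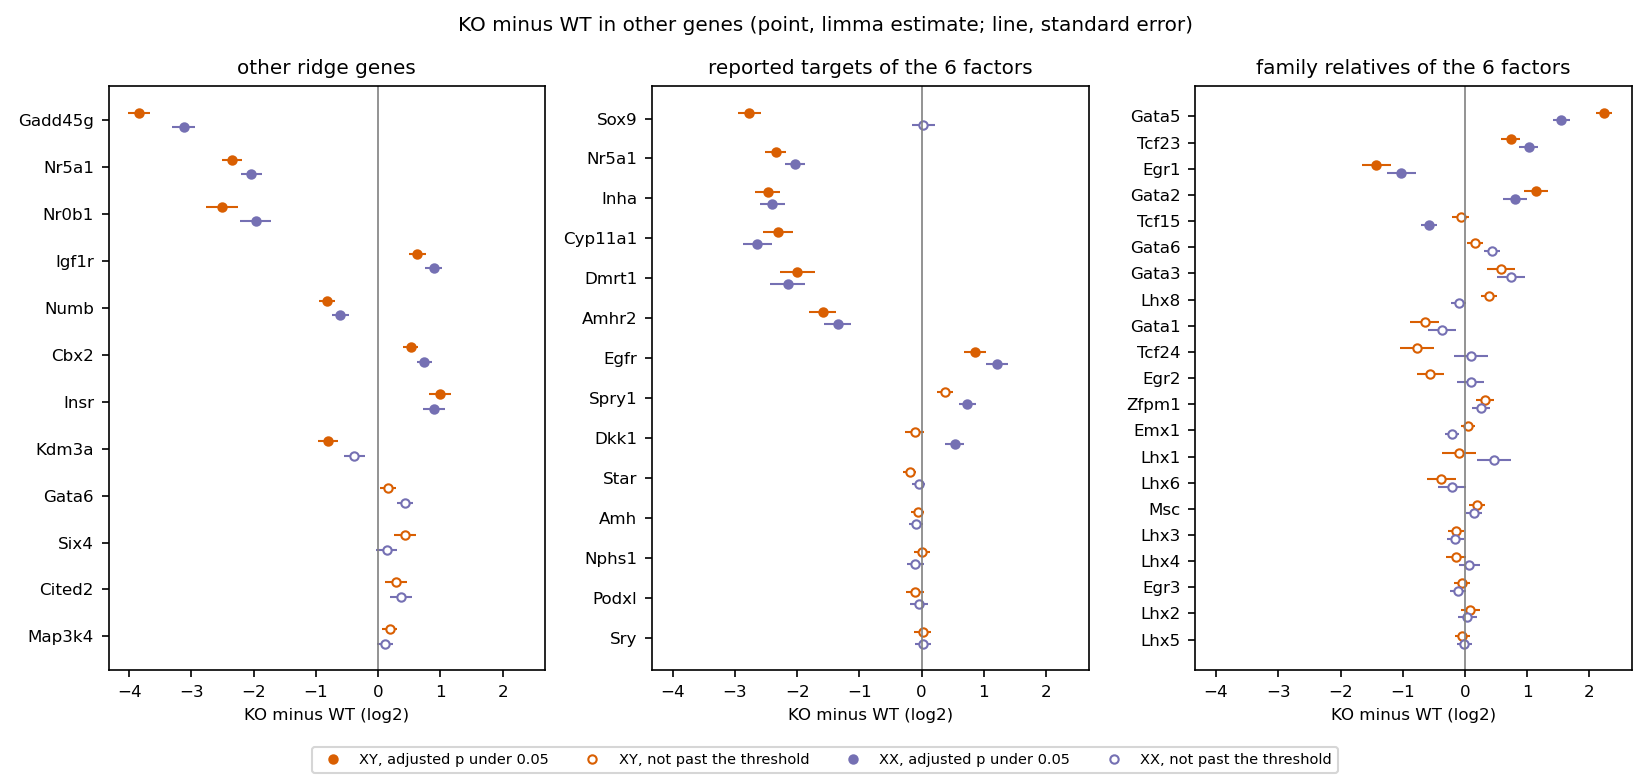
KO minus WT (horizontal axes, log2) in XY and in XX for 3 lists of other genes, each by its brightest probe set; lines are standard errors and filled points passed at adjusted p under 0.05. Gadd45g, Nr5a1 and Nr0b1 lie at or left of -1.97 in both sexes, and Gata5 lies at 2.23 in XY and 1.55 in XX.

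Genes with the profile most like that of a member over the 12 arrays were found by the root mean square difference between profiles, each taken relative to its own mean. Only Gata4, Lhx9 and Tcf21 spanned at least 1 log2 unit on their brightest probe set and were searched. Nearest to Gata4 were Mcrip2 (0.13), Tmem50b (0.14) and Frmd6 (0.15), all 3 lower in KO in both sexes. Lhx9 had Pgbd5 (0.15), Klhl5 (0.16) and Me1 (0.17) nearest to it. For Tcf21 these were Scarf2 (0.12), Ghr (0.15) and Commd3 (0.15), each with a larger KO minus WT value in XX than in XY, as in Tcf21. By limma, Scarf2 and Commd3 did not pass in XY (adjusted p = 0.25 and 0.0696). The shared directions follow from picking genes by likeness over these same arrays, and are no separate result. Without WT XX replicate 1 these 9 genes ranked between 1 and 6 for their member.

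**Figure D5:**
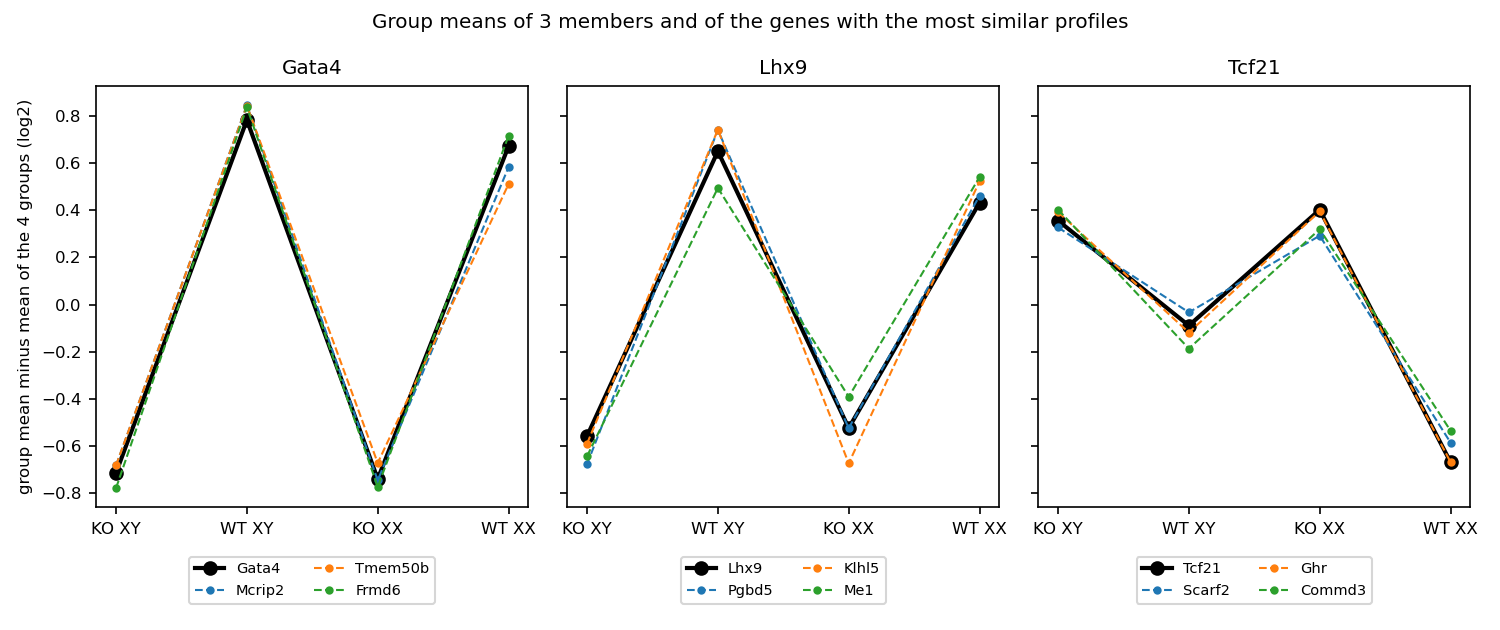
Group means relative to the mean of the 4 groups (vertical axis, log2) for Gata4, Lhx9 and Tcf21 (black) and for the 3 genes most like each (dashed). Gata4 and Lhx9 are low in both KO groups, and Tcf21 is lowest in WT XX.

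Markers of the cells that the captured tissue could hold moved with genotype too. Summed signals are linear, over the brightest probe set of each marker. Marker counts of the main fit stand beside the shares of all genes, 5.58% higher and 6% lower in XY, and 7.28% higher and 4.64% lower in XX. The alternatives have another background. Of 45037 probe sets, 4003 passed in XY and 4213 in XX in the main fit. With the Gapdh covariate these were 1040 and 5191, and without WT XX replicate 1 they were 5637 and 3558. Coelomic epithelium markers summed to 9310 to 9420 in KO XY, against 4640 to 5480 in WT XY, and to 9090 to 11600 in KO XX, against 4140 to 5000 in WT XX. Of 9 measured, 5 rose in XY and 6 in XX, led by the keratin Krt19 (2.41 ± 0.14 and 2.71 ± 0.14), and Krt8 fell in both; these counts were the same without WT XX replicate 1 and with the Gapdh covariate. Mesenchyme markers, among which Tcf21 was not counted, summed to 13100 to 13300 in KO XY, against 8380 to 8850 in WT XY, and to 12800 to 15700 in KO XX, against 7260 to 9410 in WT XX. Of 8 measured, 4 rose in XY and 3 in XX, among them Nr2f2, a nuclear receptor of interstitial cells (1.40 ± 0.21 and 1.203 ± 0.21), and Osr1 (0.86 ± 0.14 and 0.82 ± 0.14), which on every array was below the median of the array medians. With the Gapdh covariate 1 of these 4 XY calls, Osr1, was left. Dlk1 joined them without WT XX replicate 1, for 5 in XY and 4 in XX. The part of these lists in the Lhx9 and Tcf21 differences was not tested.

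The gonadal somatic list, of which Gata4, Wt1 and Lhx9 are members here, summed to 5010 to 5970 in KO XY, against 10800 to 11600 in WT XY, and to 4560 to 6580 in KO XX, against 9160 to 11200 in WT XX. None of its 5 genes was below the median of the array medians on every array of a group, and 4 of 5 fell in both sexes, all but Wt1, which held when WT XX replicate 1 was left out. Lhx9 and Gata4, whose staining guided the capture, are among these 4. The sums and counts of this list are therefore not separate from the member values above. Of 9 endothelial markers, 7 fell in XY and 5 in XX (2 without WT XX replicate 1), with sums of 1720 to 2340 in KO XY, against 3130 to 3380 in WT XY, and 1840 to 2800 in KO XX, against 2580 to 3210 in WT XX. With the Gapdh covariate 1 endothelial marker, Emcn, passed in XY and 3 passed in XX. Among mesonephric duct and tubule markers only Calb1 passed, lower in KO in both sexes, and Pax8, Lhx1, Gata3, Wnt9b, Sim1 and Ret were below the median of the array medians in every group. Gata3 passed as higher in KO XX with the Gapdh covariate. Germ cell markers summed to 5880 to 7560 in KO XY, against 4750 to 6090 in WT XY, and to 6120 to 6810 in KO XX, against 4930 to 6730 in WT XX. Of 8 measured, none passed in XY by limma (1, Tfap2c, without WT XX replicate 1) and 3 rose in XX, also without that array. Macrophage markers rose in 2 of 8 cases in either sex, and in none with the Gapdh covariate. The macrophage count without WT XX replicate 1 was 3 in XY and 1 in XX, where C1qa and C1qc were lost and Mrc1 passed. Of 5 adrenal markers, Mc2r was higher and Cyp11a1 lower in either sex, and the XY call of Mc2r was lost with the Gapdh covariate. Erythroid and neural markers had none past the threshold, apart from Stmn2, a neural marker, higher in KO XX with the Gapdh covariate.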

How the data were processed

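Total RNA (15 ng per pool) of laser-captured gonadal cells was carried through 2 rounds of amplification and biotin labelling, per the labels' protocols. The deposited values are log2 signals per probe set, made by the authors with RMA, per the submitters' processing notes, which name Affymetrix Expression Console, RMA and affy. They ran from 2.37 to 15.01 and were used as given. Of 45101 probe sets, 64 controls were left out. The annotation assigned 34945 to 1 gene, 932 to several and 9160 to none, and 34741 of the first matched a current gene identifier.

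Groups were taken from sample titles. All 45037 probe sets were fitted with limma 3.58.1 in R 4.3.3 (4 group means, 8 residual degrees of freedom, eBayes), and p-values were adjusted by Benjamini-Hochberg within each of 5 contrasts, two-sided, at 0.05. Intervals are 95% and use the moderated standard error. P-values rest on the spread between pools, and precision is limited by having 3 arrays a group. The fit was tested on simulated data. Members and lists were chosen with earlier results of these data known. Named genes were every member probe set, the 4 list genes with the smallest p in a KO minus WT contrast, any gene in a count of 5 or fewer, and the 3 genes most like a member. Marker lists are reported by counts, with leading genes chosen after their values were seen. RefSeq promoter windows matched 3 of 6 members. Alternatives changed the normalization, filter, probe sets, weights, covariates, threshold or arrays, 1 at a time.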

Additional observations from a re-analysis of the deposited data

How the results depend on the processing

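The 14 calls of member probe sets in KO minus WT were refitted under 298 combinations of call and alternative. None changed sign, 274 stayed past the threshold and 24 were lost, 11 of them for Zfpm2 1449314_at in XX. In many of these the sign could not change, because the estimate stays the same by design. Examples are leaving out an array of a group outside the contrast, another threshold, another prior or 1 probe set a gene. In XY the 6 calls became 2 with 1 probe set a gene, which removes the other probe sets from the count, and 3 with the Gapdh covariate. With 1 probe set a gene, 2421 of all 18193 genes passed in XY and 2493 in XX. In XX the 8 calls became 4 with 1 probe set a gene and 5 at adjusted p under 0.01. In XY minus XX in WT the count of 0 became 2 without WT XX replicate 1, the range over the fits that each left out 1 array being 0 to 2; in XY minus XX in KO and in the interaction it was 0 throughout. Other causes were not tested. With the replicate number as a block the counts were 6 in XY and 8 in XX, with no call changed. In that fit 4166 of all 45037 probe sets passed in XY and 4249 in XX. Over 18 pairs of same-numbered arrays, correlations of deviations from group means ran from -0.178 to 0.224 and 4 were over 0.1, so the numbers were not taken to pair the arrays. Over all probe sets, the 4003 calls in XY became 6937 with array weights, 6139 in a fit of the XY arrays alone, 1040 with the Gapdh covariate, 2024 at adjusted p under 0.01, and 2541 and 2645 without WT XY replicates 1 and 3. The 4213 in XX became 2514 in a fit of the XX arrays alone and 2013 at adjusted p under 0.01, and the 25 of XY minus XX in WT became 2449 without WT XX replicate 1 and 60 with array weights. Leaving out the Gata4 probe sets and refitting the lists were chosen after seeing the data.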
